A study of Mus musculus with 8 samples.

Results

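The genes described here encode the SLC26 anion exchangers and the Rh ammonia channels of the mouse kidney, and were taken by symbol from the deposited expression tables. The 9 symbols, of 55291 in each table, were Slc26a1, Slc26a2, Slc26a4, Slc26a6, Slc26a7, Slc26a9, Slc26a11, Rhcg and Rhbg, and all were found. RNA came from outer medullary collecting ducts, the tubule stretch that carries urine through the outer medulla, dissected from liberase-digested kidneys of wild-type C57BL/6J mice, an inbred strain. For 3 days the mice ate a normal diet with 0.3% salt (4 libraries) or a diet with 3% salt (4 libraries). Each library was made from 100 to 120 tubule pieces of a single mouse, so all cell types of the duct were measured together. The sources used here give neither age nor sex. Libraries are called by diet and by the number in their column name, which is not the number in the sample titles.

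Intercalated cells of the collecting duct move acid and base between blood and urine. The acid-secreting type pumps protons into the urine and returns bicarbonate to the blood through basolateral exchangers, and Rh channels on its membranes let ammonia pass to be trapped as ammonium, the main carrier of excreted acid. The base-secreting type carries pendrin, the product of Slc26a4, at its urine-facing membrane, where it exchanges chloride for bicarbonate, and it is known mainly from the connecting tubule and the cortical collecting duct. Other SLC26 proteins carry sulfate, oxalate or chloride.

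The level of each gene is given in CPM, counts scaled to a library total of 1 M, when libraries are compared, and in TPM, which also divides by transcript length, when genes are compared. The start regions of 3 members are shown because they stand for the highest member (Rhcg), the tested member with the widest interval for its difference between diets (Slc26a4) and a member at 0 throughout (Slc26a9). The sequences are those of RefSeq on GRCm38.p6, 250 bases before the start of the transcript, 5′ to 3′ on the strand of the gene. Capitals mark matches to TATAAA (the TATA box) and CCAAT (the CCAAT box) on either strand. Such a region was available here for 5 of the 9 members.
Rhcg, chr7:79617658-79617907, minus strand: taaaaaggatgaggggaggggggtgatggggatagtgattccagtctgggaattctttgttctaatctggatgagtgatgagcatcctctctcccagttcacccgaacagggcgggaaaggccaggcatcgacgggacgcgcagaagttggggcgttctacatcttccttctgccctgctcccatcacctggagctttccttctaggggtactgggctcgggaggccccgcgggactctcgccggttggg
Slc26a4, chr12:31559985-31560234, minus strand: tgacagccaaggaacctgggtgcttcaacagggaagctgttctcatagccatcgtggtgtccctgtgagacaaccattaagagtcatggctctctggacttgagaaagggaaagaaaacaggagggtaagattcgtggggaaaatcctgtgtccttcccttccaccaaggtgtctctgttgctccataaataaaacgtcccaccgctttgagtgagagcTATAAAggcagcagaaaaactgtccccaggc
Slc26a9, chr1:131743772-131744021, plus strand: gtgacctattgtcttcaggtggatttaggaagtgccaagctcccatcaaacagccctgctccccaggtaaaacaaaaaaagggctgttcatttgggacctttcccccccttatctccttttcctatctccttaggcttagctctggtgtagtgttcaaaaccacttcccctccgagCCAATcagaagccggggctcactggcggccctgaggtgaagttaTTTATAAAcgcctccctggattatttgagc
The Slc26a4 region held TATAAA from base -31 to -26 before the start, and the Slc26a9 region from -28 to -23 on its own strand, with an overlapping match on the opposite strand from -30 to -25. The Slc26a9 region also held CCAAT from -74 to -70. The Rhcg region held neither and had a GC content of 58.4%, against 49.6% for Slc26a4 and 50% for Slc26a9. TGTTTAC, the core bound by forkhead factors such as Foxi1 of intercalated cells, was in none of the 3 regions. Among 32851 start regions of the same length, 12.4% held TATAAA, 33.8% CCAAT and 3.17% TGTTTAC. These matches describe the letters only.

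The libraries held 64.8 to 94.1 M estimated counts, and a single count equalled 0.0106 to 0.0154 CPM. The tissue label was checked with marker genes. Aqp6 and Car2, a channel and a carbonic anhydrase of acid-secreting intercalated cells, had mean levels of 2788 and 1421 TPM over the 8 libraries, and the principal cell water channel Aqp2 14988 TPM. The summed level of 10 principal cell markers ran from 19118 to 24680 CPM under normal salt and from 28457 to 33548 CPM under high salt, with no overlap. That sum was led by Aqp2 (means of 9979 and 15689 CPM), whereas 6 of the 10 markers had higher and 4 lower means (median of the log2 fold changes 0.13). Aqp2, Aqp3 and Kcnj1 were higher without overlap (3.66% of all genes were), and Scnn1b was lower without overlap (2.75% of all genes were). Of the 10, 0 passed over all genes (0.0821% of all genes did). Of 9 markers of the thick ascending limb, a neighbouring segment, the summed level was 602 to 2164 CPM under normal salt, with libraries 1 and 6 highest at 2164 and 1639 CPM. Under high salt it was 92.0, 96.6 and 462 CPM in libraries 2, 3 and 4 and 2765 CPM in library 6, the highest of all 8. Of 10 proximal tubule markers, 7 did not reach the level tested and Slc5a12 was at 0 in every library. Their sums were 16.5 to 32.4 CPM under normal salt and 17.5 to 73.3 CPM under high salt. These sums were led by Slc27a2, at 12.2 to 25.9 CPM and 15.4 to 45.6 CPM. Of 8 distal convoluted and connecting tubule markers, the summed level was 181 to 320 CPM and 213 to 469 CPM under normal and high salt.

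Rhcg was the most abundant member in both diets and Rhbg the next. Mean levels under normal salt ran in the order Rhcg (1590 ± 128 TPM), Rhbg (376 ± 41.7), Slc26a7 (102 ± 27.1), Slc26a4 (67.9 ± 20.5), Slc26a2 (36.6 ± 12.7), Slc26a6 (5.62 ± 1.98) and Slc26a11 (5.28 ± 1.56 TPM; SD, n = 4 each). The neighbours Slc26a7 and Slc26a4, Slc26a4 and Slc26a2, and Slc26a6 and Slc26a11 overlapped between libraries, whereas Rhcg, Rhbg and Slc26a7 were apart from each other. By mean TPM over the 8 libraries, Rhcg ranked 65 among the 13401 genes tested, Rhbg 460, Slc26a7 1407, Slc26a4 2718, Slc26a2 3462, Slc26a6 10620 and Slc26a11 10889. Under high salt Slc26a2 (54.8 ± 6.63 TPM) stood above Slc26a4 (48.8 ± 44.6 TPM) by mean, and the libraries of both genes overlapped. The remaining members were close to or at 0. These 7 members had at least 1 CPM in all 8 libraries, so none passed the filter through a single diet, and Slc26a1 and Slc26a9 were not tested.

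**Figure D1:**
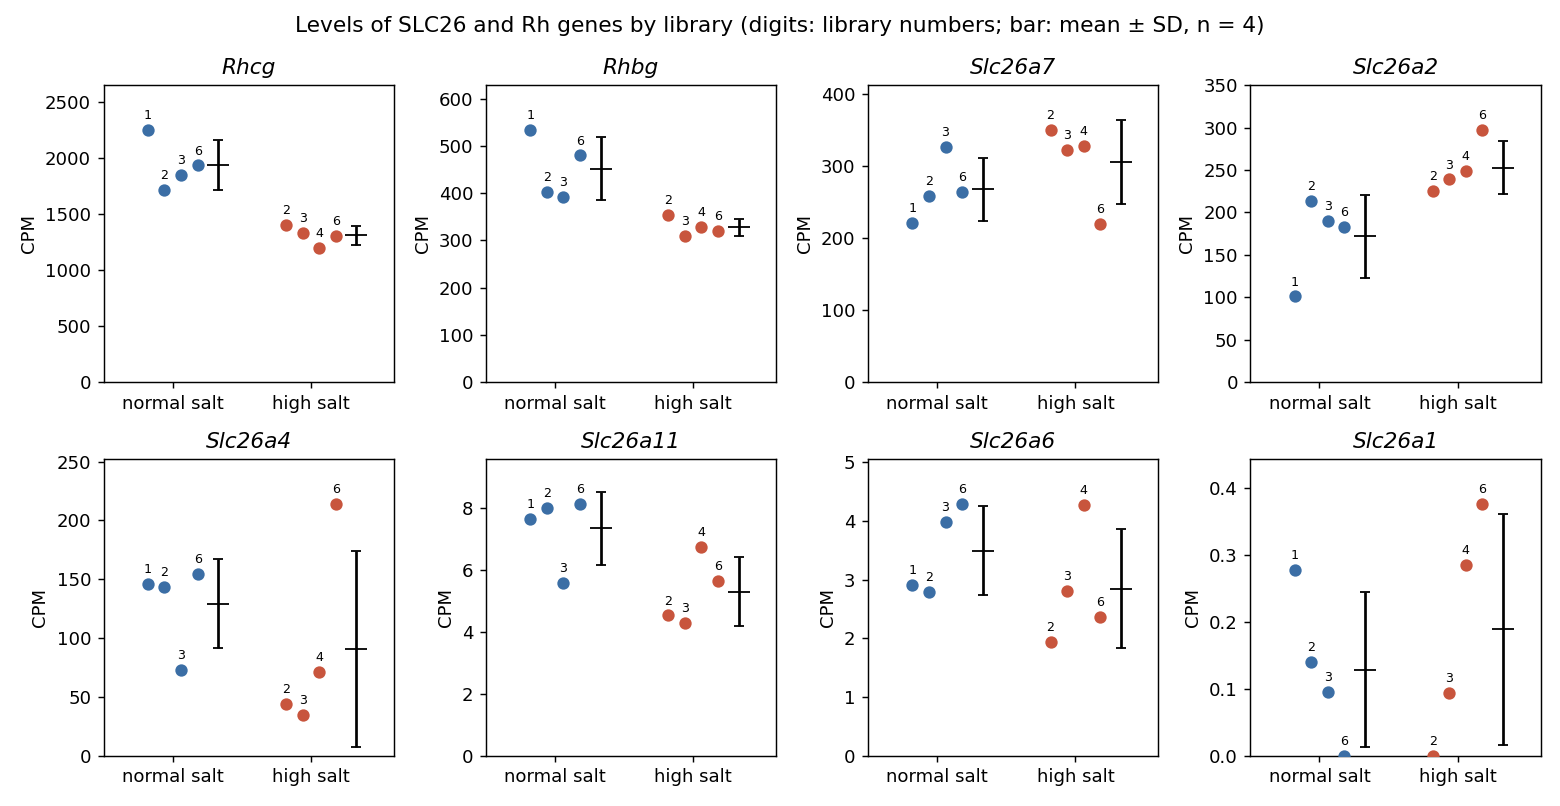
Level in CPM (linear axis from 0, a separate scale for each gene) of the 8 members detected, with 1 point per library, the library number above it, and the mean ± SD of 4 libraries beside each diet. Rhcg and Rhbg lie lower in the 4 high-salt libraries than in the 4 normal-salt libraries, Slc26a2 lies higher, and high-salt library 6 is the highest of all in Slc26a4 at 214 CPM.

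The question of the study was which transcripts of this duct differ between the diets. By limma over 13401 genes with Benjamini-Hochberg adjustment, 0 of the 7 tested members passed an adjusted p of 0.05, where 0.0821% of all genes did (0.0298% higher and 0.0522% lower). Array quality weights, another weighting of the libraries, called 1 member. At an unadjusted p under 0.05 there were 4 members (1 higher and 3 lower under high salt), against 10.3% of all genes (5.95% higher and 4.37% lower). The libraries of the diets did not overlap in 3 members, against 6.4% of all genes, with 2 lower (2.75% of all genes) and 1 higher (3.66%). The median log2 fold change of the 7 members was -0.41, beside 0.01 over all genes tested. All fold changes are high salt minus normal salt on the log2(CPM + 1) scale, which understates changes of low genes.

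Rhcg encodes the Rh C glycoprotein, an ammonia channel of the apical and basolateral membranes of collecting duct cells. It was measured at 2245, 1711, 1849 and 1932 CPM in normal-salt libraries 1, 2, 3 and 6 and at 1402, 1331, 1196 and 1300 CPM in high-salt libraries 2, 3, 4 and 6. The diets did not overlap, and the spread was wider under normal salt, where library 1 was highest. The mean was 32.4% lower under high salt, with a log2 fold change of -0.56 (SE 0.12, 95% interval -0.82 to -0.30, adjusted p = 0.109). In ducts taken whole, fewer intercalated cells and less Rhcg RNA per cell cannot be told apart. The difference was -0.49 without normal-salt library 1 and -0.56 without high-salt library 6, the libraries richest in thick ascending limb markers. With those markers as a covariate it was -0.56. They were lower in high-salt libraries 2, 3 and 4 than in every normal-salt library, so that fit separates them from diet only in part. With array quality weights the adjusted p was 0.0425, within a range of 0.0425 to 0.976 over 22 alternatives. Rhcg is a minus-strand gene of chromosome 7, bases 79593363 to 79617657 (mm10), where Gm45170 overlaps it on the same strand at 8.89 to 32.5 CPM.

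Rhbg encodes the Rh B glycoprotein, the basolateral ammonia channel. Its level was 534, 403, 393 and 481 CPM in normal-salt libraries 1, 2, 3 and 6 and at 354, 309, 328 and 320 CPM in high-salt libraries 2, 3, 4 and 6. As with Rhcg, the diets did not overlap and normal-salt library 1 was highest. The mean was 27.6% lower under high salt, with a log2 fold change of -0.45 (SE 0.11, 95% interval -0.70 to -0.21, adjusted p = 0.163). Within libraries the TPM ratio of Rhbg to Rhcg ranged from 0.216 to 0.254 (normal salt) and from 0.236 to 0.277 (high salt). These ranges overlapped, and the log2 ratio differed by 0.11 (p = 0.171, exact permutation test, two-sided; adjusted p = 0.214 over 5 ratios). Rhbg is a minus-strand gene of chromosome 3, bases 88242874 to 88254709 (mm10). The model Gm38392 overlaps it on the same strand and was at 5.33 CPM in high-salt library 4 and at most 0.184 CPM in the others.

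The Rh genes were also set against 18 intercalated cell markers, none of them a member, by subtracting the mean log2(CPM + 1) of those markers in each library. Relative to them Rhcg was at 2.51 ± 0.19 with normal salt and at 2.18 ± 0.14 with high salt (SD, n = 4 each), a difference of -0.33 (p = 0.0571, exact permutation test, two-sided; adjusted p = 0.133 over 7 members). Rhbg was at 0.42 ± 0.19 and 0.19 ± 0.10, a difference of -0.23 with the same p and adjusted p. For both genes the diets overlapped against this reference, whereas they did not in CPM. The reference itself was lower under high salt, at 8.04 to 8.29 against 8.30 to 8.50 on the log2(CPM + 1) scale. The smallest p this test can give with 4 and 4 libraries is 0.0286. Relative to the 12 acid-secreting markers alone, a reference chosen after seeing the data, the difference was -0.48 for Rhcg, without overlap (p = 0.0286, the smallest possible; adjusted p = 0.1, exact permutation test), and -0.37 for Rhbg, with overlap (p = 0.0571, adjusted p = 0.1). Another reference was 3 of those 12 markers, Slc4a1, Atp6v1b1 and Foxi1. Against it the differences were -0.41 for Rhcg (p = 0.0286, adjusted p = 0.1, exact permutation test) and -0.31 for Rhbg (p = 0.114, adjusted p = 0.2). Atp6v1b1 was itself lower under high salt without overlap (log2 fold change -0.40), whereas Foxi1 overlapped (-0.06). Slc4a1, the basolateral chloride-bicarbonate exchanger AE1 of the acid-secreting cell, differed by 0.01 on the log2 scale (adjusted p = 0.99, limma). In normal-salt library 1 it was at 730 TPM, against 1301 to 1523 TPM in the other libraries of its diet. By CPM it was at 2074 there against 2508 to 3257, so its TPM ratios in that library also reflect the transcript length used. The log2 TPM ratio of Rhcg to Slc4a1 was 1.23, -0.07, 0.02 and 0.36 in normal-salt libraries 1, 2, 3 and 6 and -0.36, -0.42, -0.43 and 0.06 in high-salt libraries 2, 3, 4 and 6, and the diets overlapped through normal-salt libraries 2 and 3 and high-salt library 6 (difference -0.67, adjusted p = 0.143, exact permutation test).

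**Figure D2:**
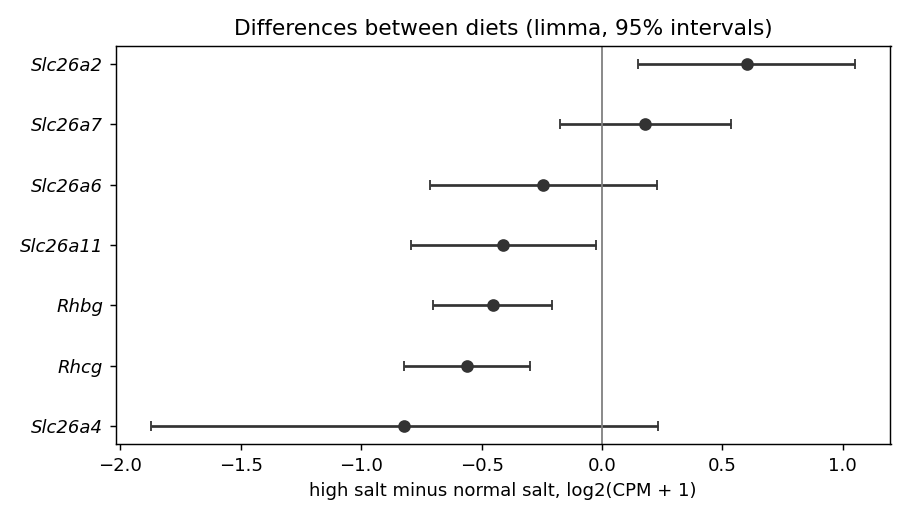
Difference between the diets on the log2(CPM + 1) scale for the 7 tested members, with 95% intervals from limma and a line at 0. The intervals of Rhcg, Rhbg, Slc26a11 and Slc26a2 do not reach 0 before adjustment over all genes, and that of Slc26a4 is the widest, from -1.87 to 0.23.

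Slc26a7 encodes a basolateral exchanger of chloride and bicarbonate in acid-secreting intercalated cells of the outer medulla, and it was the SLC26 gene with the highest mean TPM here. Its values were 221, 258, 326 and 264 CPM in normal-salt libraries 1, 2, 3 and 6 and at 349, 322, 328 and 219 CPM in high-salt libraries 2, 3, 4 and 6. The diets overlapped, with high-salt library 6 the lowest of all 8. The log2 fold change was 0.18 (SE 0.16, 95% interval -0.17 to 0.53, adjusted p = 0.759). Without high-salt library 6 it was 0.33 (adjusted p = 0.432), and without normal-salt library 1 it was 0.09 (adjusted p = 0.841). With thick ascending limb markers as a covariate, which was partly aligned with diet, it was -0.045. The TPM ratio of Slc26a7 to Slc4a1 ranged over 0.0692 to 0.0895 (normal salt) and 0.0895 to 0.0962 (high salt) (log2 difference 0.18, p = 0.0571, adjusted p = 0.143, exact permutation test, two-sided). The diets overlapped only between normal-salt library 1 and high-salt library 3. Without that normal-salt library the difference was 0.22 (p = 0.0286, the smallest possible, and adjusted p = 0.143, exact permutation test). Leaving out the only overlapping normal-salt library removes the overlap by itself, so this p adds no support. The ratio of CPM to TPM of Slc26a7, which follows the transcript length behind a value, varied 1.24-fold between libraries. It was highest in normal-salt library 1 and lowest in high-salt library 6, and its part in the TPM ratio was not tested. Slc26a7 is a minus-strand gene of chromosome 4, bases 14502430 to 14621805 (mm10).

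Slc26a4 encodes pendrin, the apical chloride-bicarbonate exchanger of base-secreting intercalated cells. It was measured at 146, 144, 73.0 and 154 CPM in normal-salt libraries 1, 2, 3 and 6 and at 44.0, 35, 71.1 and 214 CPM in high-salt libraries 2, 3, 4 and 6. High-salt libraries 2, 3 and 4 were below every normal-salt library, and high-salt library 6 was above them all. The log2 fold change was -0.82 (SE 0.48, adjusted p = 0.600). Without high-salt library 6 it was -1.35 (unadjusted p = 0.000912, adjusted p = 0.123, limma), and without high-salt library 3 it was -0.49 (adjusted p = 0.837). Leaving out high-salt library 6, the only one not below the normal-salt libraries, separates the diets by itself, so that p of 0.000912 adds no support. Slc26a4 is a minus-strand gene of chromosome 12, bases 31519827 to 31559969 (mm10).

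The level of Slc26a4 moved with markers of another segment. The mean log2(CPM + 1) of the 9 thick ascending limb markers was 5.36, 4.53, 4.06 and 5.0 in normal-salt libraries 1, 2, 3 and 6 and 2.43, 2.66, 3.87 and 5.72 in high-salt libraries 2, 3, 4 and 6. High-salt library 6 was highest and normal-salt library 3 lowest of its diet in both these markers and Slc26a4, and high-salt libraries 2 and 3 were the lowest of all in both. Umod, the uromodulin of the thick ascending limb, was at 1368, 537, 355 and 864 CPM in the normal-salt libraries and at 46.5, 35.7, 248 and 1695 CPM in the high-salt libraries, with the libraries in the sequence just used. With the marker mean as a covariate the log2 fold change of Slc26a4 was -0.026 (adjusted p = 0.996, limma). With the mean of 18 intercalated markers as the covariate instead it turned to 0.93 (adjusted p = 0.976, limma). That mean includes base-secreting markers and did not overlap between the diets (8.30 to 8.50 under normal salt and 8.04 to 8.29 under high salt). Its fit therefore cannot separate it from diet. The mean of the thick ascending limb markers was lower in high-salt libraries 2, 3 and 4 than in every normal-salt library. It was highest in high-salt library 6, so its fit separates it from diet only in part. The part of the thick ascending limb markers in the Slc26a4 difference was not tested beyond the fit with their mean. The summed distal convoluted and connecting tubule markers were also highest in high-salt library 6 (469 CPM) and lowest in normal-salt library 3 (181 CPM). High-salt library 3, the lowest in Slc26a4, went the other way, with 308 CPM of them against 216 CPM in normal-salt library 2. Their part in the Slc26a4 difference was not tested. Slc26a7 had its lowest values in high-salt library 6 and normal-salt library 1, where the thick ascending limb markers were highest. Their part in the Slc26a7 values was not tested beyond the fit with their mean.

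**Figure D3:**
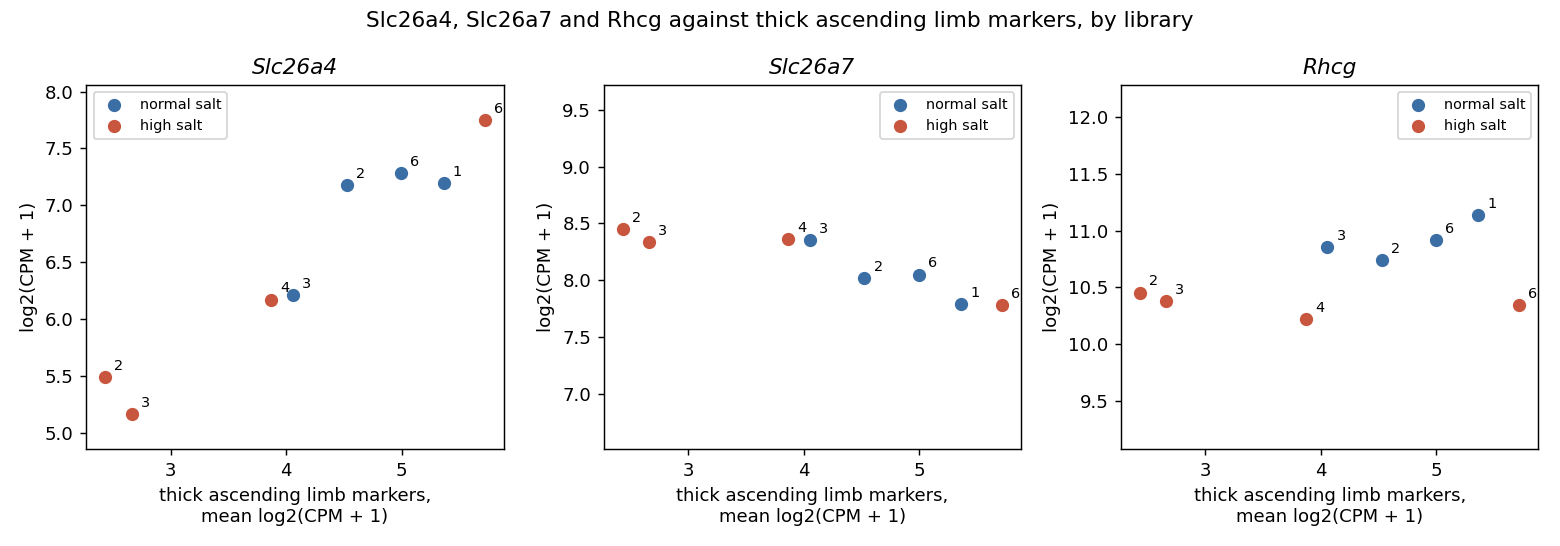
Level of Slc26a4, Slc26a7 and Rhcg against the mean level of 9 thick ascending limb markers, both as log2(CPM + 1), with 1 numbered point per library and the same span on each vertical axis. Slc26a4 is lowest where the markers are lowest (high-salt libraries 2 and 3) and highest where they are highest (high-salt library 6). The Rhcg points of the diets do not overlap in level.

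Other genes of the base-secreting cell were listed as markers. Of 6, 4 had lower means and 2 higher means under high salt, 3 had an unadjusted p under 0.05 (all lower, against 4.37% of all genes), and 0 passed over all genes (0.0821% of all genes did), with a median log2 fold change of -0.70 beside 0.01 over all genes tested. Slc4a9, the basolateral exchanger AE4 of that cell, was measured at 230, 202, 133 and 353 CPM in normal-salt libraries 1, 2, 3 and 6 and at 82.5, 55.0, 91.3 and 235 CPM in high-salt libraries 2, 3, 4 and 6 (log2 fold change -1.11, adjusted p = 0.363, limma). Its pattern resembled that of Slc26a4, with high-salt library 6 alone inside the normal-salt range. Oxgr1, the receptor for 2-oxoglutarate, had 128, 91.8, 85.5 and 211 CPM and 68.3, 48.4, 50.7 and 81.8 CPM in the same libraries, with no overlap (-0.98, adjusted p = 0.205). Spink8 went the other way in the means, at 92.5 ± 34 and 114 ± 14.9 CPM (0.37, adjusted p = 0.66). Of the 12 acid-secreting markers 8 had lower and 4 higher means, 0 passed over all genes and 2 had an unadjusted p under 0.05 (both lower, against 4.37% of all genes), with a median of -0.10 beside 0.01 over all genes.

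The ratio of Slc26a4 to Slc26a7 sets pendrin RNA against the exchanger of the acid-secreting cell within a library. By TPM it ranged from 0.3 to 1.04 (normal salt) and from 0.143 to 1.22 (high salt). Its log2 value was 0.05, -0.41, -1.71 and -0.33 in normal-salt libraries 1, 2, 3 and 6 and -2.48, -2.74, -1.73 and 0.29 in high-salt libraries 2, 3, 4 and 6. The diets overlapped, with a difference of -1.07 (p = 0.229, adjusted p = 0.229, exact permutation test, two-sided). Without high-salt library 6 the difference was -1.72 (adjusted p = 0.143, exact permutation test). Leaving out that library removes the overlap by itself, so this p adds no support.

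**Figure D4:**
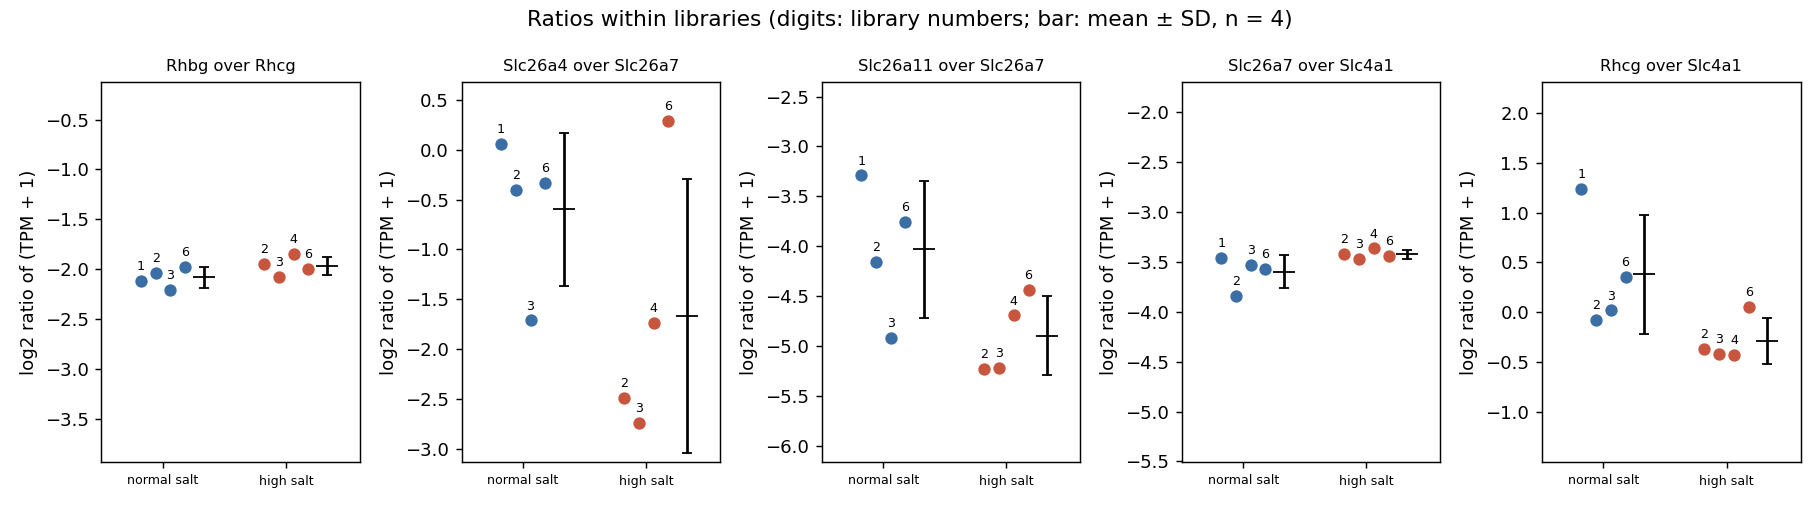
Log2 ratio of 5 pairs of genes within each library, from TPM + 1, with numbered points and the mean ± SD of 4 libraries beside each diet, all panels spanning the same number of log2 units. Rhbg over Rhcg has diet means of -2.08 and -1.97, and Slc26a4 over Slc26a7 spans the widest range of the 5, from -2.74 to 0.29.

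Slc26a2 encodes a sulfate transporter that most tissues express and that cartilage depends on. It was measured at 101, 214, 190 and 182 CPM in normal-salt libraries 1, 2, 3 and 6 and at 225, 239, 249 and 297 CPM in high-salt libraries 2, 3, 4 and 6. The diets did not overlap, with normal-salt library 2 just below high-salt library 2 and normal-salt library 1 far below the rest. The mean was 47.1% higher under high salt, with a log2 fold change of 0.60 (SE 0.20, 95% interval 0.15 to 1.05, adjusted p = 0.329). Without normal-salt library 1 the log2 fold change was 0.36 (adjusted p = 0.164), still with an unadjusted p of 0.00498. Library 1 also had the highest macrophage and fibroblast markers of its diet (mean log2(CPM + 1) of 2.76 and 4.34, beside at most 1.77 and 2.69 in the other normal-salt libraries), and their part in the Slc26a2 value was not tested. Relative to the intercalated markers Slc26a2 differed by 0.83 without overlap (p = 0.0286, the smallest the exact permutation test allows; adjusted p = 0.133), and relative to the 12 acid-secreting markers alone by 0.68, also without overlap. Slc26a2 lies on chromosome 18 of mm10.

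Slc26a11 encodes a chloride transporter of intercalated cells and of neurons. It was measured at 7.65, 8.01, 5.60 and 8.14 CPM in normal-salt libraries 1, 2, 3 and 6 and at 4.54, 4.30, 6.75 and 5.65 CPM in high-salt libraries 2, 3, 4 and 6. The diets overlapped through normal-salt library 3, which was below high-salt libraries 4 and 6. The log2 fold change was -0.41 (SE 0.17, 95% interval -0.79 to -0.03, adjusted p = 0.449). On TPM it was -0.57 (adjusted p = 0.479), and with the intercalated marker mean as a covariate, which did not overlap between the diets, -0.07. The ratio of CPM to TPM, which follows the transcript length behind a value, was 0.777 and 0.817 of the median gene in normal-salt libraries 1 and 6 and 1.14 to 1.16 in the other 6 libraries, so the transcript lengths assigned to Slc26a11 were not the same in all libraries. Relative to Slc26a7, its log2 TPM ratio was -4.03 ± 0.69 (normal salt) and -4.89 ± 0.39 (high salt) (SD, n = 4 each; p = 0.0857, adjusted p = 0.143, exact permutation test).

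Slc26a6 encodes a chloride-oxalate and chloride-bicarbonate exchanger known from the apical membrane of the proximal tubule. Levels were 2.92, 2.79, 3.98 and 4.29 CPM in normal-salt libraries 1, 2, 3 and 6 and at 1.94, 2.81, 4.27 and 2.37 CPM in high-salt libraries 2, 3, 4 and 6. The diets overlapped, with a log2 fold change of -0.24 (SE 0.21, 95% interval -0.72 to 0.23, adjusted p = 0.753). GENCODE M21 lists 10 transcripts for this gene, more than for any other member, and its ratio of CPM to TPM varied 1.87-fold between libraries, against 1.02-fold for Slc26a4 and 1.04-fold for Rhbg. Both are plus-strand genes (mm10), Slc26a6 at bases 108853283 to 108913049 of chromosome 9 and Slc26a11 at bases 119355557 to 119381079 of chromosome 11.

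Slc26a1, a sulfate and oxalate exchanger of the basolateral membrane of the proximal tubule, was at 18, 12, 9 and 0 estimated counts in normal-salt libraries 1, 2, 3 and 6 and at 0, 7, 21 and 26 in high-salt libraries 2, 3, 4 and 6. That is at most 0.376 CPM, and each diet held a library at 0. High-salt library 6, the highest, was also the highest in the summed proximal tubule markers (73.3 CPM), and normal-salt library 6, at 0 counts, the lowest (16.5 CPM). High-salt library 2, also at 0 counts, had 21.0 CPM of these markers. That was above normal-salt library 3 (17.3 CPM, 9 counts) and high-salt library 3 (17.5 CPM, 7 counts). Slc27a2 alone was at 45.6 CPM in high-salt library 6 and 12.2 CPM in normal-salt library 6, so the sums mostly follow that gene. Whether proximal tubule cells bear on the counts was not tested. Idua, an enzyme gene on the opposite strand, overlaps Slc26a1 and was at 12.3 to 16.5 CPM. In the libraries where Slc26a1 was at 0 counts, normal-salt library 6 and high-salt library 2, Idua was at 15.6 and 16.5 CPM. The strand setting of the counting is not given, and whether Idua reads entered the Slc26a1 counts was not tested. Slc26a9, a chloride transporter of stomach and airway, was at 0 counts in all 8 libraries, which allows up to 3 counts or 0.0319 to 0.0463 CPM per library, for counting error alone.

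The remaining genes of both families were near 0. Slc26a8, known from sperm, was at 0.0926 to 0.796 CPM under normal salt and 0.339 to 1.03 CPM under high salt, and Slc26a10 at 0.304 to 0.668 and 0.133 to 1.46 CPM. Slc26a3, the intestinal chloride-bicarbonate exchanger, was at most 0.0399 CPM, Slc26a5, prestin of the outer hair cell, at most 0.0145 CPM, and Rhd, of red cells, at most 0.0271 CPM. Rhag, the ammonia channel of red cells, was at 0 in all 8 libraries. Of these 6 genes 0 reached the level tested.

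Partners of acid and ammonia transport were described from lists that held no member. Of 20 tested acid-base and ion transporters on the list 1 rose over all genes and 0 fell (0.0298% and 0.0522% of all genes), with 5 higher and 6 lower at an unadjusted p under 0.05 (5.95% and 4.37% of all genes) and a median log2 fold change of 0.02, beside 0.01 over all genes. The gene that rose was Slc4a4, a sodium bicarbonate cotransporter, at 25.2, 38.2, 29.4 and 32.9 CPM in normal-salt libraries 1, 2, 3 and 6 and 61.7, 72.7, 120 and 84.2 CPM in high-salt libraries 2, 3, 4 and 6 (log2 fold change 1.37, adjusted p = 0.0336, limma). Its high-salt values were all above its normal-salt values. Car15, a membrane-bound carbonic anhydrase, had 17.8 to 102 CPM and 123 to 518 CPM (3.19, adjusted p = 0.0815). Atp12a, a pump that exchanges protons for potassium, had 6.76 to 19.2 CPM and 16.1 to 28.9 CPM (1.21, adjusted p = 0.155).

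Enzymes and carriers that make or move ammonia and glutamine did not pass over all genes in any of 7 tested members (0.0821% of all genes did), with 2 higher and 1 lower at an unadjusted p under 0.05 (5.95% and 4.37% of all genes) and a median of 0.12 beside 0.01. For Asns, asparagine synthetase, the log2 fold change was 0.40 (adjusted p = 0.371, limma), for Slc7a5, a carrier of large neutral amino acids, 0.57 (adjusted p = 0.382), and for Glud1, glutamate dehydrogenase, 0.12 (adjusted p = 0.713). The lowest high-salt value of Slc7a5, 5.35 CPM, was inside the normal-salt range.

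Scaffolds and kinases that bind SLC26 or Rh proteins showed 0 of 10 members past the test over all genes and 1 (higher) at an unadjusted p under 0.05, where 0.0821% and 10.3% of all genes were. Means were higher in 9 of the 10, beside 7076 of all 13401 genes, with a median of 0.15 beside 0.01. The member with the smallest p was Ank3, ankyrin G, which holds Rhbg at the basolateral membrane, at 116 to 152 CPM under normal salt and 155 to 180 CPM under high salt (0.26, adjusted p = 0.397, limma). After it came Wnk4, a kinase of ion transport (0.19, adjusted p = 0.624), Ahcyl2 (0.16, adjusted p = 0.645) and the PDZ scaffold Slc9a3r1 (0.13, adjusted p = 0.688). Of 6 tested genes of sulfate activation and uptake 0 passed (0.0821% of all genes did), with 1 higher and 1 lower at an unadjusted p under 0.05 (5.95% and 4.37% of all genes) and a median of -0.12 beside 0.01. Bpnt1, a phosphatase that clears a by-product of sulfation, had 109 to 146 CPM and 150 to 166 CPM (0.29, adjusted p = 0.324). For Slc35b2, which carries activated sulfate into the Golgi, the log2 fold change was -0.25 (adjusted p = 0.431), for its relative Slc35b3 -0.26 (adjusted p = 0.529) and for Papss2, which makes activated sulfate, -0.48 (adjusted p = 0.772). The sulfate carriers Slc13a1 and Slc13a4 did not reach the level tested.

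Finally, the genes whose log2(CPM + 1) was most like a member over the 8 libraries were listed from 9099 protein-coding genes with a mean of at least 10 CPM. The values are Pearson correlations over 8 libraries that share the 2 diets, given as a description, with the same after removing each diet's mean in brackets. Rhcg was most like Rogdi at 0.98 (0.93), Mapk13, a stress kinase, at 0.97 (0.94), Camk2n1, an inhibitor of a calmodulin kinase, at 0.97 (0.96), the lipase Pnpla2 at 0.97 (0.83) and the calcineurin regulator Rcan2 at 0.97 (0.76). Rhbg was most like the glutathione transferase Gsta3 at 1.00 (0.99), Smco4 at 0.99 (0.98), Rogdi at 0.98 (0.93), Pts at 0.98 (0.94) and Paip2 at 0.97 (0.92). Rogdi was thus near both Rh genes. Slc26a4 was most like Ank, a pyrophosphate exporter, at 0.99 (0.99), the potassium channel subunit Kcne1 at 0.98 (0.98), Tmem52b at 0.98 (0.97), the prostaglandin receptor Ptger3 at 0.97 (0.97) and Tmem72 at 0.97 (0.97). Ptger3 is on the list of thick ascending limb markers. Slc26a7 was most like Zfp334 at 0.94 (0.96), the volume-regulated channel subunit Lrrc8e at 0.93 (0.92), Anapc2 at 0.91 (0.91), Parva at 0.91 (0.91) and Zfp760 at 0.91 (0.89).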

How the data were processed

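RNA was sequenced from 8 libraries of dissected ducts, 4 per diet. The named tools are Trimmomatic and FastQC and the named build is mm10, per the submitters' processing notes. Not given in the sources used here are the aligner, counter, annotation and strand setting. A TPM table was deposited by the authors together with a table named CPM whose values were on a log2 scale with a floor of -5.29 in every library. They were turned back to linear CPM by raising 2 to each value, subtracting the linear value of the floor and scaling to 1 M. Steps in these values gave estimated counts, of which 84.7% to 85.9% were whole within 0.005, so no count model was the main test.

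Genes with at least 1 CPM in at least 4 libraries (13401) were fitted as log2(CPM + 1) with limma 3.58.1 (R 4.3.3, eBayes with trend, two-sided, Benjamini-Hochberg over all genes, threshold 0.05). The fit had been tested on simulated data with a fixed spread and no differing tissue content, where the recovery required was that of large changes. Column names gave the diet but not the title number, so each column stands for a replicate of its diet, and p-values measure the spread between mice. Values relative to intercalated markers and TPM ratios were compared by exact permutation over 70 assignments of libraries. Positions came from GENCODE M21.

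The members and lists were chosen with earlier results of these data known. Named genes were all members, the other family genes, up to 4 genes of smallest p and any called gene per partner list, the 2 to 3 highest genes of cell type lists, and the 5 genes most like Rhcg, Rhbg, Slc26a4 and Slc26a7. Some genes that this rule names are not reported here. Gm45170, Gm38392 and Idua were added as overlapping genes. Alternatives covered pseudocount, filter, scaling, table, weights, voom, covariates, replicate block and leaving out each library.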

Additional observations from a re-analysis of the deposited data

Results flagged for a closer look

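Among 38 sets of 4 values (members by diet, members relative to intercalated markers, and ratios), 5 held a library far from the other 3 by Dixon's ratio of gap to range, past its 95% critical value for 4 values, where chance flags about 1 in 20 sets. Several of the sets share values. In normal-salt library 3, Slc26a4 was at 6.21 on the log2(CPM + 1) scale (ratio 0.902), below the other 3 libraries of its diet. Relative to intercalated markers it was at -2.09 there (ratio 0.939). The same library was at 2.72 for Slc26a11 (ratio 0.831). In high-salt library 6, the log2 TPM ratio of Rhcg to Slc4a1 was 0.0579 (ratio 0.868), above the rest, and Slc26a7 relative to intercalated markers was at -0.506 (ratio 0.892), below the rest.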

How the results depend on the processing

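Over 22 alternatives, 0 members were called in 21 and 1 with array quality weights (Rhcg, -0.50, adjusted p = 0.0425), where 129 of all genes were called against 11. Rhcg, Rhbg, Slc26a6 and Slc26a11 stayed lower and Slc26a2 higher in each alternative run for them. Slc26a6 could not be fitted with the 5 CPM filter, which it did not pass. Direction turned for Slc26a7 with the thick ascending limb covariate (-0.045) and the intercalated covariate (-0.20), and for Slc26a4 with the intercalated covariate (0.93). The intercalated covariate did not overlap between the diets, so its fit cannot separate it from diet. The cause of these turns was not tested. Leaving out 1 library at a time called 0 members, with Rhcg at -0.62 to -0.49, Rhbg at -0.52 to -0.37, Slc26a2 at 0.36 to 0.72, Slc26a11 at -0.52 to -0.33, Slc26a7 at 0.09 to 0.33, Slc26a6 at -0.41 to -0.13 and Slc26a4 at -1.35 to -0.49. Slc26a6 relative to intercalated markers (-0.02) ranged from -0.19 to 0.11. The exact permutation tests called 0 members and ratios in every setting run, but with a smallest p of 0.0286 adjusted over 7 or 5 tests this says little about stability.

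The diets shared library numbers 2, 3 and 6, which are not said to pair mice, so the numbers were not taken as pairs. Deviations from the diet means correlated at 0.208, 0.287 and 0.002 between libraries of the same number. Differing numbers were not correlated for comparison, so these values do not settle pairing. With the replicate block over these 6 libraries 0 members were called (Rhcg -0.44, adjusted p = 0.141; 37 genes in all), and without it, an alternative added after seeing the data, also 0 (23 genes). Calls over all genes moved from 11 to 0 with no filter on low values (1933 at an unadjusted p under 0.05), to 5 on TPM, to 22 with robust moderation, to 39 and 0 with the thick ascending limb and intercalated covariates, and to between 0 and 50 when 1 library was left out (50 without library 1 of normal salt, 1 without its library 6, 0 without its library 3, and 5, 1 and 0 without libraries 2, 3 and 4 of high salt). Median-of-ratios and TMM scaling kept every member's direction and called 0. At the depth here, Slc26a1 and Slc26a9 were too low to compare.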
